A study of Mus musculus with 384 samples.

Results

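The cells described here are single mouse cells of 5ar1, 1 of the 2 formative stem (FS) cell lines that were profiled together with the epiblast stem cell (EpiSC) lines AFX6 and AF32. A cell was included where its label named the line 5ar1 and its counts over all genes summed to at least 3000000, which 90 of the 96 sorted 5ar1 cells did (93.8%, exact 95% Clopper-Pearson interval 86.9–97.7%), out of 384 cells in the series. The cells just outside this threshold had 2533732 and 2861257 counts, and those just inside had 3230023 and 3402746. The same threshold kept 90 cells of 5ar2, 66 of AFX6 and 80 of AF32, which serve as background.

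Both FS cell lines came from mouse epiblast at embryonic day 5.5 and were grown, by the labels, in A3XR, taken here to be the study's medium of low activin A with XAV939, a tankyrase inhibitor that blocks canonical Wnt signalling, and BMS493, an inverse agonist of retinoic acid receptors. The label condition was Formative for 5ar1 and 5ar2, and Primed for AFX6, grown in AFX (activin A, Fgf2 and XAV939), and for AF32, grown in AF (activin A and Fgf2). No genotype, strain, transgene or treatment was given for any of these lines in the labels, and each group is 1 cell line, so that line and medium cannot be told apart. Cells were sorted 1 to a well into 96-well plates and sequenced as full-length Smart-seq2 libraries, a method that carries no molecular identifiers.

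Pluripotent cells of the mouse embryo pass from the naive state of the blastocyst through a formative state, in which they lose the naive transcription factors and become competent for germline and somatic fates, to the primed state that precedes the primitive streak. The formative state is marked by the growth factor gene Fgf5, the transcription factor genes Otx2 and Pou3f1 (Oct6) and the de novo DNA methyltransferase gene Dnmt3b. Eomes, a T-box factor gene, is active in early post-implantation epiblast and later in the streak.

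The 90 cells held 3230023 to 6398702 counts each, with a median of 4811004, and 9187 to 12402 detected genes, with a median of 11371. A count of 0 therefore allowed up to 0.929 CPM (a gene's counts, scaled to the same total in every cell) in the shallowest cell and 0.469 CPM in the deepest, for counting error only. A gene was taken as detected in a cell at 5 CPM or more. Y-linked genes summed to at most 1.7 CPM in AFX6 cells. This was read as a spurious level, although the sex of that line was not given. No 2 columns of counts were identical. Intervals below cover counting error only, and no test between lines was made because each group is 1 line and its cells are not replicates.

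Before the results, 3 of the 90 cells, numbered 26, 41 and 66 in the labels, have to be set apart. They held the highest level of 76 (71.0%) of the 107 genes that varied most between cells for their mean (1.588% of 6740, by a measure described further on): cell 26 for 32 genes, cell 41 for 30 and cell 66 for 14, against 5 for the next cell. All 3 lacked most transcripts of mitosis. The 24 genes of the G2/M list, which act in mitotic entry and chromosome segregation, summed to 39.3 CPM in cell 26, 315 in cell 41 and 53.4 in cell 66, against 2126 to 13936 (median 4565) in the other 87 cells, with no overlap. In cells 26 and 66, 23 of the 24 genes lay under 5 CPM, and in cell 41 it was 20. Dnmt1, the maintenance methyltransferase gene, stood at 0, 0.526 and 0.384 CPM in them, against a median of 179 in the other cells. Cell 26 had the fewest detected genes of all 90 (9187), while cell 41 had 10434 and cell 66 had 10241. These cells were chosen after their values were seen, and results that rest on them are given with and without them.

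Cell 26 carried neuronal transcripts. Tubb3, a neuronal beta-tubulin gene, had 10109 CPM there against at most 668 in the 87 cells. The highest genes over the other cells were Nhlh2, a helix-loop-helix factor gene, with 1710 CPM, Th, the gene of tyrosine hydroxylase, with 1201 CPM, and the netrin receptor gene Dcc with 959 CPM, each under 0.5 CPM in every one of the 87 cells. Calb2 (calretinin) had 3732 CPM, Nnat 8069, Dcx (doublecortin) 783, Map2 759 and Tbr1 452. The early neural factor genes Sox1 and Pax6 were at 0 in it. Pou5f1, the gene of the pluripotency factor Oct4, had 3.41 CPM, Utf1 4.02, Fgf5 0, Otx2 1.2 and Dnmt3b 8.98, while Eomes had 59.1.

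Cell 41 had as little Pou5f1 (3.68 CPM) and Utf1 (3.42 CPM), but Dcx, Nnat and Calb2 were under 1 CPM in it, and Tubb3, at 213 CPM, lay within the range of the 87 cells. Map2 had 107 CPM, above their highest value of 48.5. Its leading genes were others. Sprr1a, which encodes a cornified envelope precursor, had 1096 CPM and Anxa1 (annexin A1) 1051, each under 1 CPM in all 87 others. The keratin genes Krt18 and Krt8 had 2637 and 1148 CPM, Vim (vimentin) 6495, Anxa2 2437 and Tmsb4x (thymosin beta 4) 3735. The epithelial adhesion gene Epcam had 1.8 CPM in this cell. The 8 genes of the mesenchymal list summed to 6731 CPM, most of it Vim, against at most 1792 in the 87 cells. The epithelial list, which holds Krt18 and Krt8, summed to at most 3500 CPM in the 87 cells and at most 5834 over all 90. The 10 p53 target genes summed to 6135 CPM, above the 477 to 3639 of the 87 cells, with 1238 CPM of the cell cycle inhibitor gene Cdkn1a. The 12 glycolysis genes summed to 4453 CPM, under the 23676 to 67150 of the 87 cells.

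Cell 66 kept Pou5f1 at 291 CPM, close to the lowest of the 87 cells (273), and Pou3f1 at 390 CPM, the highest of all. It had 4062 CPM of Hes6 and 3959 of Dll3, a repressor and a ligand gene of the Notch pathway, 3550 of the matrix gene Mfap4, 249 of Neurod1 and 198 of Lhx1. Some neuronal transcripts of cell 26 were also high in it, with 862 CPM of Nnat and 44.8 of Nhlh2. Dnmt3b had 179 CPM in it, below all of the 87 cells (lowest 320), and Cdkn1a 1203. The 3 cells therefore shared the low G2/M transcripts, and most of their leading genes differed. Where these cells came from was not tested. The plot of 24 genes in the cells 26, 41 and 66 shows them beside the others.

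**Figure D1:**
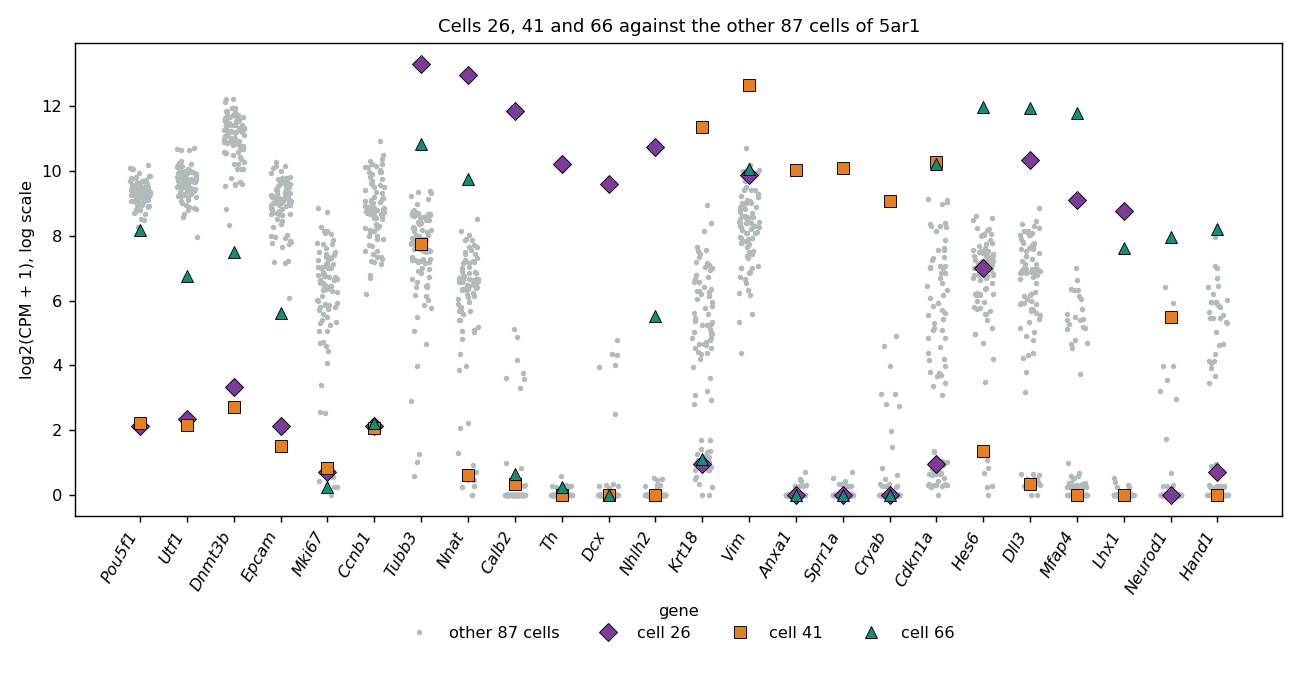
Level of 24 genes, as log2(CPM + 1), in cells 26, 41 and 66 (diamond, square and triangle) and in each of the other 87 cells of 5ar1 (grey points). Mki67 and Ccnb1 lie under 5 CPM in all 3 cells, Pou5f1 in cells 26 and 41 but at 291 CPM in cell 66, and the genes from Tubb3 to Hand1 are each highest, or among the highest, in 1 or 2 of them.

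Cells with little Pou5f1 were also found in the other lines. It lay under 5 CPM in 2 of the 90 5ar1 cells, in 1 of 90 for 5ar2, 1 of 66 for AFX6 and 2 of 80 for AF32. The 5ar2 cell, number 49, resembled cell 41 in some genes, with 1594 CPM of Krt18, 2163 of Vim and 757 of Cdkn1a, but still had 99.4 CPM of Dnmt3b.

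Markers of the formative state were present in most cells, as the label Formative says of the line. Dnmt3b (chromosome 2, 153649450–153687730, GRCm38) had 5.52, 2263 and 4844 CPM in the lowest, median and highest of the 90 cells and was detected in all 90. Otx2 (chromosome 14, 48657677–48673819) had 1.2, 159 and 474 CPM and was detected in 89, cell 26 being the exception. Fgf5 (chromosome 5, 98254184–98277030) had 0, 217 and 728 CPM and was detected in 83 of 90 cells (92.2%, 84.6–96.8%). A few cells were thus without Fgf5 while most had over 100 CPM (lower quartile 105).

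Eomes and Pou3f1 were lower and more often absent. Eomes (chromosome 9, 118478212–118486132) had 0, 45.0 and 424 CPM and was detected in 74 of 90 cells (82.2%, 72.7–89.5%). Pou3f1 (chromosome 4, 124656807–124660655) had 0, 39.2 and 390 CPM and was detected in 72 (80.0%, 70.2–87.7%). All 5 markers were detected together in 57 of 90 cells and 4 of them in 27. All 5 were found in 50 of 90 5ar2 cells, but in 1 of 66 for AFX6 and 2 of 80 for AF32. With each cell thinned at random to 3000000 counts, Eomes was detected in 81.1% of 5ar1 cells and the shares of the other 4 genes did not move.

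Across lines, Fgf5, Eomes and Pou3f1 set both FS cell lines apart from both EpiSC lines. Median levels of Fgf5 were 217 CPM in 5ar1 and 237 in 5ar2, but 0.441 in AFX6 and 0.766 in AF32. For Eomes they were 45.0, 28.2, 0 and 0, and for Pou3f1 39.2, 21.8, 0.294 and 0.289 in the same order. Otx2 differed less, with medians of 159, 169, 92.8 and 85.5 CPM. Dnmt3b had its highest median in 5ar1 (2263 CPM), followed by 5ar2 (1402), AF32 (581) and AFX6 (318), and the ranges of single cells of the 4 lines overlapped for every marker. Pou5f1 had medians of 630, 498, 507 and 520 CPM, so that this factor differed less between the 4 lines than the markers did.

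**Figure D2:**
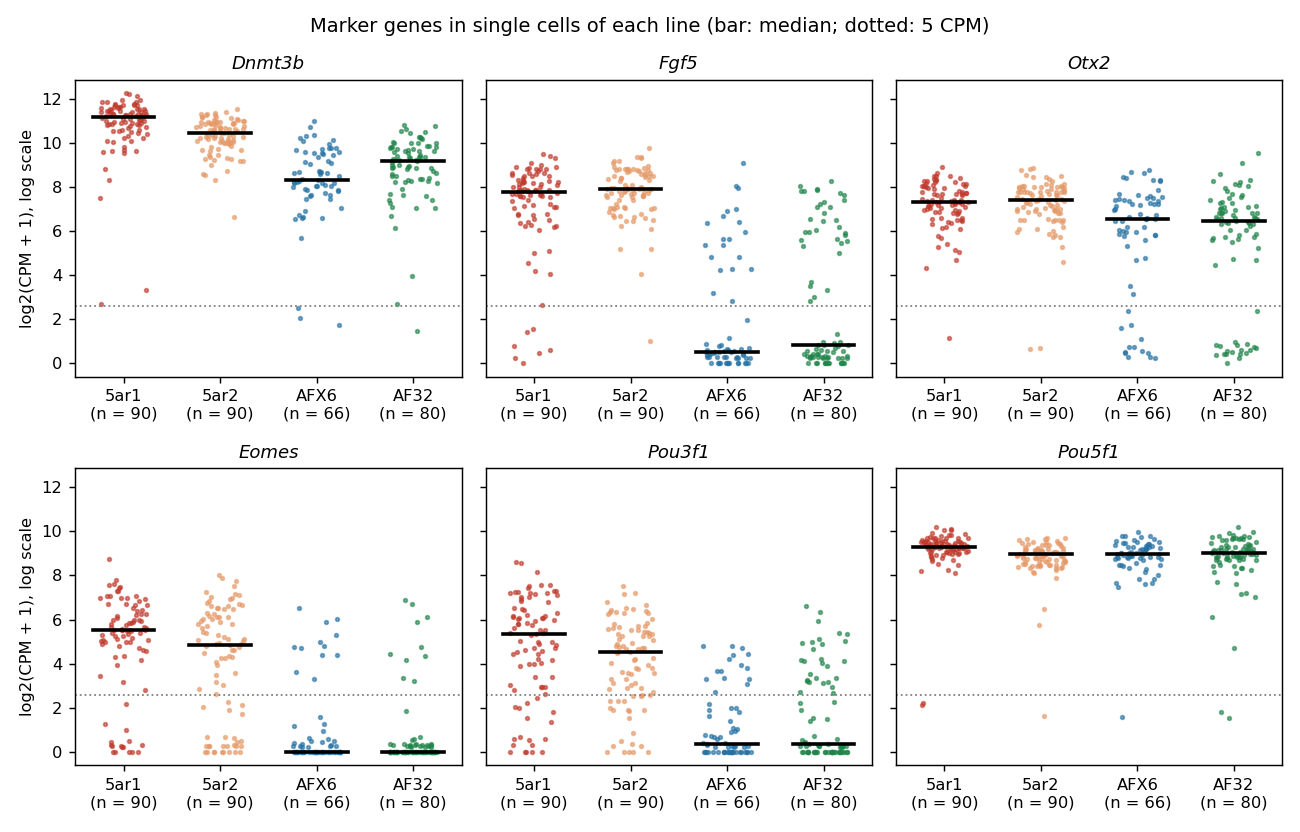
Level of the 5 marker genes and of Pou5f1, as log2(CPM + 1), in each cell of the 4 lines, with a bar at the median and a dotted line at 5 CPM. Fgf5, Eomes and Pou3f1 have medians of 217, 45.0 and 39.2 CPM in 5ar1 and under 1 CPM in AFX6 and AF32, while Pou5f1 and Otx2 lie closer together.

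The 5 markers had weak relations with each other. Over the 87 cells, Spearman's rho across cells was highest between Eomes and Otx2 (0.29), Fgf5 and Otx2 (0.27) and Fgf5 and Pou3f1 (0.26), and lowest between Fgf5 and Dnmt3b (−0.17) and Pou3f1 and Dnmt3b (−0.16). These cells share 1 line and culture, and pairs of all expressed genes had a median rho of 0.004, with 95% of pairs between −0.22 and 0.23. The 3 highest marker pairs thus lay above this range, and the other 7 within it.

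The abundant transcripts of 5ar1 were those of glycolysis, translation and the cytoskeleton. Of 17174 protein-coding genes in the table, 15480 had a count in at least 1 cell, and 984 reached 5 CPM in every cell (1644 in every one of the 87). By mean CPM, the leading genes were Gapdh (10490), Eef1a1 (8844), Ldha (7991), Hsp90ab1 (7451), Pkm (7058), Npm1 (5494), Aldoa (5244) and Eno1 (5012), which are 5 glycolytic enzyme genes, an elongation factor, a chaperone and the nucleolar protein nucleophosmin. Tubb5, Rps2, Ftl1, Atp5b, Eif5a, Actb, Rplp0, Rpl4, Actg1, Ppia, Ncl and Tpi1 completed the 20, which made up 9.71% of all counts in the median cell (range 2.8–13.6%).

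Per length of exon, and scaled to the same sum as CPM, the order changed in favour of short transcripts. Eef1a1 then led at 10398, followed by the ferritin light chain gene Ftl1 (7759), Gapdh (7427), Hsp90ab1 (7288), Ldha (7082), the cytokine gene Mif (6782) and the ribosomal protein genes Rplp1 (6603) and Rps2 (6386). Mif, Rplp1, Ptma, Rpl8, Tuba1a and Rpl19 were among the first 20 on this scale but not by CPM.

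The 12 glycolysis genes alone made up 4.37% of the counts in the median cell (range 0.445–6.7%). Gapdh ranged from 7302 to 18246 CPM in the 87 cells, and over all 90 cells its CV (SD over mean) was 0.85 times that of genes of like mean. Slc2a1, the gene of the glucose transporter Glut1, was the member of the list that varied most, from 81.6 to 5227 CPM.

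Most genes of the core pluripotency list were present in nearly every cell. In the 87 cells, Pou5f1 had 273 to 1167 CPM (median 632), Utf1 251 to 1665 and Sall4 49.4 to 377, and Lin28a was at 18.7 CPM or more in each. Nanog was low and patchy, with a median of 21.5 CPM over 90 cells and 55 cells at 5 CPM or more, and Sox2 had a median of 11.0 CPM with 62 such cells. In summed counts, Nanog stood at 28.5 CPM in 5ar1 and at 33.5 (5ar2), 159 (AFX6) and 400 (AF32) in the others. Sall4 stood at 190 CPM against 39.3 in AFX6, and Lin28a at 89.2 against 17.0 in AF32.

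Of 11 naive pluripotency genes, none reached a mean of 20 CPM. Klf4 was detected in 4 of 90 cells, Esrrb in 4, Tfcp2l1 in 3 and Klf2 in 2, and Tbx3 and Prdm14 had 0 counts in every cell. Klf5 was the most widespread, detected in 26 cells, and its highest level (288 CPM) was in cell 41. The naive factor genes Zfp42 and Tcl1 were not analysed here.

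Markers of the other cell types that such a culture could hold were scarce. No member of the extraembryonic endoderm, fibroblast and primordial germ cell lists had a mean of 20 CPM. Their summed levels had medians of 0, 1.1 and 0 CPM and highest values of 71.9, 81.3 and 89.1 CPM. Of these lists, 2 of 7, 0 of 7 and 2 of 8 genes were at 0 in all 90 cells. These were Gata6, Foxa1, Prdm1 and Prdm14, and the other members had a count in some cell. Of 17 streak and mesendoderm genes, the only ones above that mean were Eomes and Hand1, while T (brachyury) was detected in 1 cell, Mixl1 and Foxa2 in none, and Gsc had no count. Of 6 trophoblast genes Hand1 alone passed, Ascl2 had a mean of 18.9 CPM, and Elf5 and Gata3 were at 0. Of 10 early neural genes Tubb3 and Nes (nestin) passed, whereas Sox1 was detected in 8 cells, Pax6 in 4, and Pax3 in none. The genes Evx1, Cer1, Olig2, Afp, Ttr, Cdx2, Lum and Dazl were not analysed here.

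The Nodal pathway had its receptors and Smads in 5ar1 but little ligand or target transcript. Foxh1, the Smad partner that binds Nodal target genes, had a median of 193 CPM over the 90 cells and was detected in 88, Acvr2b (a type 2 activin receptor) a median of 40.2 and Smad2 44.0. Nodal itself was detected in 15 of 90 cells, the antagonist gene Lefty1 in 7 and Lefty2 in 1. Tdgf1, which encodes the Nodal co-receptor Cripto, had a median of 0.813 CPM and a highest value of 328 CPM and was detected in 32 cells. Gdf1 was not analysed here.

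In summed counts the difference from EpiSCs was large for these targets, read against all genes with 20 CPM or more in either line. At 4-fold or more, 136 of 7590 genes were higher in 5ar1 than in AFX6 (1.792%) and 174 lower (2.292%), and 86 of 7717 were higher than in AF32 (1.114%) and 143 lower (1.853%). The median log2 difference of all tested genes was 0.08 to AFX6 and −0.03 to AF32. Of the Nodal list 0 were higher, while 4 of 9 tested were lower than in AFX6 and 5 of 12 lower than in AF32, and the medians of the list were −0.80 and −0.91. Lefty1 stood at 4.89 CPM in 5ar1, far under the 687 CPM of AFX6 and 3818 CPM of AF32, and 5ar2 was low as well with 10.7. Tdgf1 had 27.4 and 36.7 CPM in 5ar1 and 5ar2, but 839 and 1398 in AFX6 and AF32, a level in AFX6 30.6 times that of 5ar1. In this order of lines Nodal had 5.46, 5.32, 49.0 and 94.7 CPM. The activin in the media differed between FS cells and EpiSCs and cannot be told apart from the line.

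Of the FGF, Wnt and retinoic acid lists, 8 of 15, 7 of 17 and 3 of 12 genes had a mean of 20 CPM or more. Fgf4 had a median of 30.0 CPM and Fgf15 57.4, the receptor gene Fgfr1 162, and the pathway targets Dusp6 119 and Etv5 210, whereas Fgf8 was detected in 3 of 90 cells. In summed counts, Fgf4 stood at 44.2 CPM against 3.73 in AF32, and Fgf8 at 0.529 against 66.3. Of 17 Wnt genes, 7 passed 20 CPM, among them Ctnnb1 (beta-catenin, median 355 CPM), Tcf7l1 (95.9) and Tnks2 (90.8), 1 of the tankyrases that XAV939 inhibits. The Wnt targets Sp5 and Dkk1 had no count, and Axin2 was detected in 13 cells. Rarg and Rxrb were the main receptor genes for retinoic acid, with medians of 43.1 and 84.6 CPM, and the target genes Rarb and Cyp26a1 were detected in 0 and 1 of 90 cells. Crabp2, a retinoic acid binding protein gene, had 47.6 CPM against 9.67 in AFX6 and 9.21 in AF32, and Dhrs3, a retinaldehyde reductase gene, 6.7 against 39.4 and 28.9.

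Of 12 tested genes of the formative list, 4 were past 4-fold higher than in AFX6, against 1.792% of all genes: Fgf5 7.45-fold (exact conditional interval 7.30–7.60), Pou3f1 16.8-fold (15.9–17.8), Dnmt3b 4.55-fold (4.52–4.57) and Eomes 9.25-fold (8.86–9.67). Fgf5, Pou3f1 and Eomes were also past it against AF32 (5.09-, 7.78- and 10.5-fold), as 1.114% of all genes were, while Dnmt3b was 3.64-fold higher. The median log2 difference of the list was 1.04 to AFX6 and 0.74 to AF32. The list holds the 5 markers that were used to check the label of the line. Foxd3 and Tcf15 stayed below 20 CPM in 5ar1, with means of 11.7 and 9.72 CPM, and Sox3 had 1.08.

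Epithelial junction and keratin genes were at least 4-fold lower than in AFX6 in 6 of 9 tested, against 2.292% of all genes. Cldn7 (claudin 7) had 16.9 CPM against 504, Cldn6 98.8 against 502, Krt8 29.8 against 233, Krt18 79.0 against 663, Ocln (occludin) 0.956 against 47.1 and Crb3 14.4 against 130. Cdh1 (E-cadherin) was at 89.6 CPM, between AFX6 (171) and the other lines (5ar2 54.2, AF32 21.9), and Epcam had a median of 544 CPM over the 90 cells. Against AF32 none of 6 was at least 4-fold lower and Cdh1 was higher, where 1.853% of all genes were lower and 1.114% higher. The keratin levels of 5ar1 rest in part on cell 41, whose 2637 CPM of Krt18 compare with a median of 30.4 in the 87 cells, and without cells 26, 41 and 66 Krt18 stood at 57.3 and Krt8 at 20.2 CPM. The median log2 difference of the list was −2.97 to AFX6 and 0.02 to AF32.

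Other lists held few genes past 4-fold, though the immediate early list had a large median difference. Of all genes, 1.792% were higher and 2.292% lower than in AFX6, and 1.114% higher and 1.853% lower than in AF32. Of 12 glycolysis genes it was Slc2a3 (Glut3), with 649 CPM in 5ar1 and 3795 in AFX6. Of the immediate early list, 3 of 10 tested genes were lower than in AF32: Fos (2.04 against 35.7 CPM), Jun (25.9 against 130) and Egr1 (20.1 against 163). Zfp36 (5.14 against 42.3), 1 of 11 tested, was lower than in AFX6. The median log2 difference of this list was −1.73 to AFX6 and −1.08 to AF32. Mest, a paternally expressed imprinted gene, was higher than in both EpiSC lines, with 344 CPM in both FS cell lines, against 38.8 (AFX6) and 30.4 (AF32). In the sterol and fatty acid list Insig1 and Scd1 were lower than in AFX6 (1.3 against 131 CPM, and 4.77 against 199). Id3 had 41.6 CPM against 0.0932 in AFX6, a level under that of detection, so that no size is given to this difference. Ccne2 and E2f1 of the G1/S list were higher than in AFX6, 5.61- and 4.16-fold, Nkd1 and Tet2 were lower than in AF32, 9.19 against 46.4 and 6.8 against 41.4 CPM, and 0 of 24 G2/M genes and 0 of 77 tested ribosomal protein genes were past 4-fold. The ribosomal genes were lower in 5ar1 by a median log2 difference of −0.41 to 5ar2, −0.72 to AFX6 and −0.32 to AF32, where all tested genes had 0.05, 0.08 and −0.03. Of 4 tested streak genes, Eomes and Hand1 were higher than in AF32, and T and Fgf8 lower, T being detected in 2 of 80 AF32 cells. Of the Y-linked list all 3 tested genes (Ddx3y, Eif2s3y and Uty) were higher than in AFX6, where the list summed to a median of 0.512 CPM against 179 in 5ar1, a level under that of detection, so that no size is given, and 0 were past 4-fold against 5ar2 or AF32. Of the early neural list Tubb3 was higher than in both EpiSC lines, with 335 CPM, or 242 without cells 26, 41 and 66, against 12.2 in AFX6.

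5ar2, the other FS cell line, was closest. Only 13 of 7124 genes were at least 4-fold higher in 5ar1 (0.1825%) and 10 lower (0.1404%). Krt8 (29.8 against 157 CPM) and the collagen gene Col1a1 (2.8 against 27.7 CPM) were the members of a list that were lower, and Hand1 the member that was higher. Most of the Col1a1 of 5ar2 was in 1 cell, with 1867 CPM, and its median was 0 CPM in both lines.

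Against all 3 lines, 3 genes were at least 4-fold higher in 5ar1. 2210016F16Rik, a gene with no described role here (chromosome 13, 58379817–58385225), had 38.2 CPM in summed counts, 0.113 in 5ar2 and 0.331 in AFX6, and was detected in 55 of 90 cells, with a median of 27.5 and a highest level of 308 CPM. Hand1, a helix-loop-helix factor gene of heart, limb and trophoblast (chromosome 11, 57828705–57832818), had 23.5 CPM, against 0.0276, 0.198 and 0.261 in 5ar2, AFX6 and AF32. Calb2 had 29.3 CPM, but 1.4 without cells 26, 41 and 66. Tagln3 (29.5 CPM, 11.1 without the 3 cells), Rtn1 (24.8 and 9.56) and Tubb3 (335 and 242) also leaned on those cells, while Zfp575 (34.1 and 34.9), B830012L14Rik (36.0 and 34.0), Rtn4rl1 (28.8 and 27.3) and Hltf, a DNA translocase gene (151 and 154), did not. The last 4 were 3.1-, 2.6-, 2.4- and 2.3-fold above the line next to 5ar1.

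Hand1 was a gene of some cells and not of others. It was detected in 32 of 90 cells (35.6%, 25.7–46.3%), with 295 CPM in cell 66, at most 248 CPM in the others and a median of 0. It was detected in 0 of 90 5ar2 cells (upper bound of the exact interval 4.02%), in 1 of 66 for AFX6 and in 1 of 80 for AF32. Across the 90 cells its level moved with that of the amino acid transporter gene Slc7a7 (rho 0.54, or 0.53 without the 3 cells) and of Bambi, a TGF-beta pseudoreceptor gene (0.46, or 0.47), and these rhos were 0.11 and −0.01 in 5ar2, where Hand1 was not detected. The Y-linked demethylase gene Kdm5d, chosen after its values were seen, was likewise detected in 35 of 90 cells of 5ar1, 23 of them with Hand1, and had a mean under 0.1 CPM in each other line.

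Against all 3 lines, 9 genes were at least 4-fold lower, all with summed levels under 2 CPM in 5ar1. The serine protease gene Hpn (hepsin) had 0.195 CPM, and 4.27, 59.0 and 9.33 in 5ar2, AFX6 and AF32. In 5ar1 and these 3 lines Fgf8 had 0.529, 7.5, 6.06 and 66.3 CPM, and Lhfp 1.6, 20.4, 42.8 and 27.7. Cblc, Col8a1, Rassf6, Ptpru, Efnb1 (ephrin B1) and Trim67 followed, with 0.230 to 1.8 CPM in 5ar1 and 4.08 to 8.70 times that in the line next to it. 2610528J11Rik, the next gene, lay at 4.00-fold and just under the limit.

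To compare the spread of genes between cells at like mean, the CV of CPM over cells was divided by the median CV of the 200 genes with the nearest mean (CV ratio), for the 6740 protein-coding genes at 20 CPM or above on average. The median CV was 1.08 for genes of 20 to 50 CPM and 0.241 for those of 1000 CPM and above. For the most abundant genes, such as Gapdh, Actg1 and Hspa8, the 200 were the other genes of highest mean. Most of those lay below the gene, so such ratios are not strictly at like mean. A CV ratio over 2 was found for 107 genes (1.588%), and without cells 26, 41 and 66 for 42 of 6652 (0.6314%), of which 37 were among the 107. In the other lines it was found for 81 genes of 5ar2 (1.238%), 54 of AFX6 (0.8004%) and 113 of AF32 (1.594%).

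With all 90 cells, the list was led by genes that 1 cell carried. Calb2 had a CV ratio of 9.6 with a median of 0 CPM, Nnat 9.4, Mfap4 8.1, Tubb3 7.6, Tagln3 6.3, Rtn1 5.8, Tmsb4x 5.8, Ncam1 5.3, Dll3 5.1, Hes6 4.9 and Krt18 4.9. In the 87 cells the ratio was 1.3 for Nnat, 1.6 for Tubb3, 1.1 for Ncam1, 1.6 for Dll3, 1.2 for Hes6 and 1.8 for Krt18, and Calb2, Mfap4, Tagln3 and Rtn1 had means under 20 CPM. The remaining of the first 30 were Dpysl3, Vim, Map1b, Ccn1, Anxa2, Perp, Krt8, Cdc42ep4, Cdkn1a, Cldn6, Tnfrsf12a, Stmn3, Hist1h1c, Rufy3, Hspb1, Lzts1, Cd63, Car3 and Csrp1. Only 5 of these 30 were among the first 30 of the 87 cells: Tmsb4x, Ccn1, Cldn6, Cdkn1a and Csrp1.

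**Figure D3:**
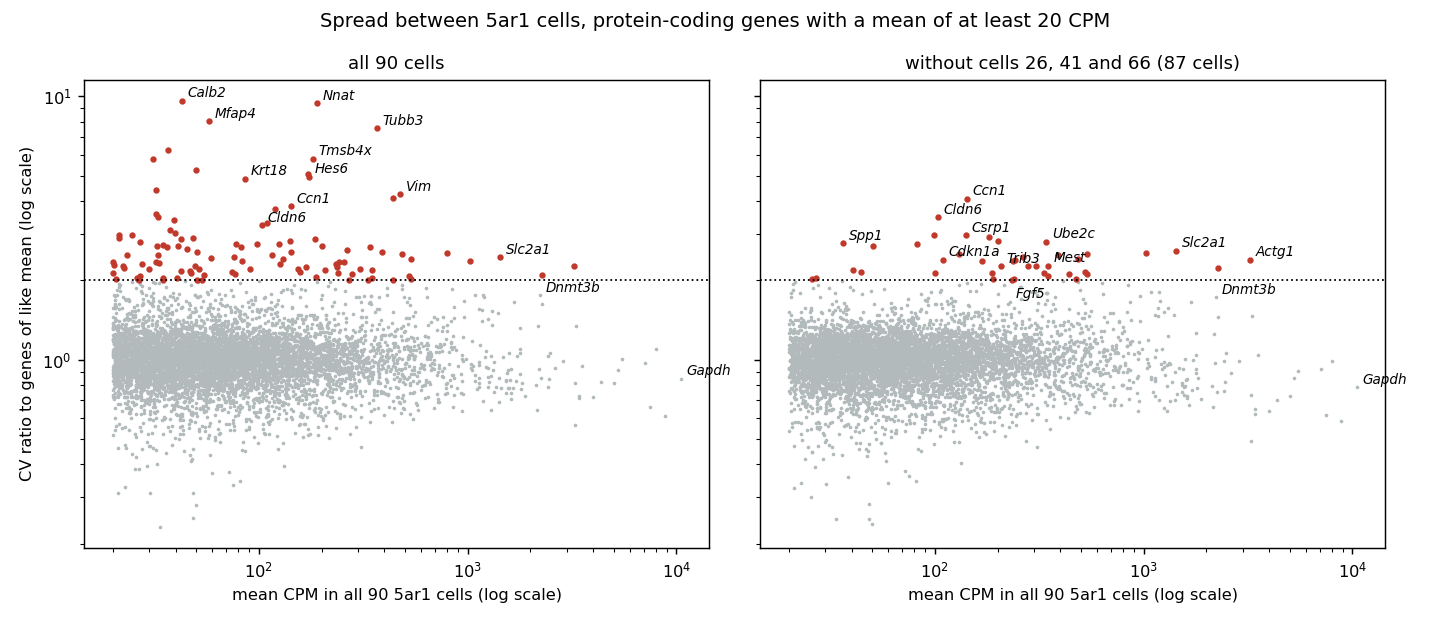
CV ratio of each protein-coding gene (the CV of CPM over cells divided by the median CV of 200 genes of like mean) against its mean CPM in 5ar1, both on log scales, for all 90 cells (left) and without cells 26, 41 and 66 (right), with a dotted line at 2 and genes above it in red. The line is passed by 107 genes on the left and 42 on the right, where Ccn1, Cldn6 and Csrp1 lead and Calb2, Nnat and Mfap4 are gone.

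In the 87 cells, the order was led by Ccn1, Cldn6, Csrp1, Igfbp3 and Tmsb4x, genes of varied role. Ccn1 (Cyr61), a matricellular gene known as a target of the YAP coactivator, had a CV ratio of 4.1, with 0.173 CPM in the lowest cell, 31.4 in the median cell and 1533 in the highest. Several genes of the actin cytoskeleton, grouped here after their values were seen, were past 2. The LIM domain gene Csrp1 had 3.0, Tmsb4x 2.9, the calponin genes Cnn2 and Cnn1 2.8 and 2.8, the myosin light chain gene Myl9 2.7, the transgelin gene Tagln2 2.5, the tropomyosin gene Tpm1 2.4 and the actin gene Actg1 2.4. Actg1 ran from 798 to 12001 CPM around a median of 2898. Cldn6 (3.5), Igfbp3 (3.0), Spp1 (osteopontin, 2.8), the carbonic anhydrase gene Car4 (2.5), Bambi (2.5), Ckb (2.5) and Clu (clusterin, 2.4) stood near the top as well. Ccn2 (2.1), a relative of Ccn1, was also past 2.

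Of the 42 genes, 35 also had a ratio over 2 in 5ar2 (83.3% of the 42 and 43.2% of the 81 of 5ar2), 13 in AFX6 (31.0% and 24.1%) and 24 in AF32 (57.1% and 21.2%). The other lines kept all their cells here, while 3 were left out of 5ar1. With all 90 cells the shares of the 107 were 42.1% for 5ar2, 16.8% for AFX6 and 30.8% for AF32. Csrp1 had 5.1 in 5ar2, 3.1 in AFX6 and 2.2 in AF32, and Ccn1 4.2, 3.0 and 7.2. Bambi passed 2 in 5ar1 alone of the 4 lines, with 1.7, 1.2 and 1.5 in the others.

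Genes of the cell cycle formed the next group. The ubiquitin conjugating enzyme gene Ube2c, which serves the anaphase-promoting complex, had 22.9, 198 and 1430 CPM in the lowest, median and highest of the 87 cells and a ratio of 2.8. The mitotic kinase genes Aurka (2.4) and Plk1 (2.3), the cyclin gene Ccnb1 (2.2), the anaphase activator gene Cdc20 (2.1) and the topoisomerase gene Top2a (2.1) were also past 2, so that 6 of the 24 G2/M genes were (25.0%, against 0.6314% of all genes), both with and without cells 26, 41 and 66. Of the 21 G1/S genes 0 were, and the highest were Rrm2 (1.7) and Cdc6 (1.7). In the 87 cells the summed G1/S level was lower in cells with more G2/M transcript, with a rho of −0.60.

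Members of the G2/M list moved together, with a median rho of 0.41 over pairs in the 87 cells, and Ube2c and Ccnb1 had 0.70. Their promoters share letters, and 3 of them are shown for that reason. The letters TTTGAA of the cell cycle homology region, on either strand, were found in the 300 bases around the start (250 before and 50 after) of 15 of the 20 G2/M genes that could be matched (75.0%), in 1 of 16 G1/S genes and in 20.2% of 27025 genes. CCAAT, on either strand, was found in 18 of 20 (90.0%), 9 of 16 and 41.1%, but also in 8 of 10 genes of the ATF4 list (80.0%), 4 of 7 p53 targets (57.1%) and 6 of 11 glycolysis genes (54.5%). The sequences are those of RefSeq on GRCm38.p6, with TTTGAA and CCAAT of either strand in capitals: Ube2c lies at chr2:164769679-164769978 on the plus strand with 1 TTTGAA and 6 CCAAT, Plk1 at chr7:122159185-122159484 on the plus strand with 1 of each, and Ccnb1 at chr13:100786437-100786736 on the minus strand with 0 and 2.
Ube2c: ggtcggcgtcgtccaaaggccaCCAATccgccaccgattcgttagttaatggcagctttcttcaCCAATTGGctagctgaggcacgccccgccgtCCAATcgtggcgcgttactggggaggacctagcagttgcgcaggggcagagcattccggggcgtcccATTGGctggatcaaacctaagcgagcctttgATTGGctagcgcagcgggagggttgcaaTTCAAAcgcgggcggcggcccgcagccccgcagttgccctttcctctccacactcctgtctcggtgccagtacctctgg
Plk1: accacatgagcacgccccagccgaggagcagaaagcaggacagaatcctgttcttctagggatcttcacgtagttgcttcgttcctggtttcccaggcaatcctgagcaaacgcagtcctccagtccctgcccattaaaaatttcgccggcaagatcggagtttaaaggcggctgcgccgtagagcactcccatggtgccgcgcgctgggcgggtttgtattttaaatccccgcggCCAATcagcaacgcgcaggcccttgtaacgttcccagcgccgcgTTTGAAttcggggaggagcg
Ccnb1: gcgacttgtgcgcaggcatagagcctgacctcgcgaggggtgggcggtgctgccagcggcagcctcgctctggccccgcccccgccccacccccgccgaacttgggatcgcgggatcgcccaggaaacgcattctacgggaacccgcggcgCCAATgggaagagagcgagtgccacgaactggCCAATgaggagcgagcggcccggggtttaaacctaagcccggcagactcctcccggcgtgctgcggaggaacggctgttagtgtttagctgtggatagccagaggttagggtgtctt
These matches describe the letters in this window and not a bound site.

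The ATF4 list, genes induced by the factor that responds to amino acid shortage and endoplasmic reticulum stress, had 2 of 10 genes past 2 in the 87 cells (20.0%, against 0.6314% of all genes) and 1 of 10 with all 90 (10.0%, against 1.588%). The pseudokinase gene Trib3 had 0.175, 125 and 898 CPM in the lowest, median and highest of the 87 cells (ratio 2.3) and Chac1, which degrades glutathione, had a ratio of 2.02, which was 1.97 with all 90. Trib3 and Chac1 had a rho of 0.72 across the 87 cells, and 0.75 in 5ar2. In summed counts, 3 of 10 genes were past 4-fold higher than in AFX6, against 1.792% of all genes: Trib3 (7.58-fold, interval 7.42–7.75), Chac1 (16.5-fold) and Atf5 (7.96-fold). Against AF32 it was Trib3 (11.8-fold), Chac1 (6.3-fold) and Sesn2 (4.79-fold), against 1.114% of all genes, and 0 were lower. The median log2 difference of the list was 1.4 to AFX6 and 0.94 to AF32. The stress sensor gene Ddit3 (Chop) had a median of 12.0 CPM, and Atf4 itself 515.

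The letters TGATGNAA of the element that ATF4 binds with a CEBP partner, on either strand, were found in the same window of 4 of 10 genes of this list, Trib3, Chac1, Asns and Slc7a11, and in 4.51% of all promoters. They are in capitals in Trib3 (chr2:152344011-152344310, minus strand) and Chac1 (chr2:119350992-119351291, plus strand), shown because these 2 genes varied together, from RefSeq on GRCm38.p6.
Trib3: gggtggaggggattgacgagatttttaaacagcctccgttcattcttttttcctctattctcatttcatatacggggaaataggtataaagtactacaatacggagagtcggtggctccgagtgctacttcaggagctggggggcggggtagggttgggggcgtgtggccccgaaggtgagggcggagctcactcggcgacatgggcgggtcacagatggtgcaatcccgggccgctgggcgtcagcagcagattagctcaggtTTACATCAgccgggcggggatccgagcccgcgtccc
Chac1: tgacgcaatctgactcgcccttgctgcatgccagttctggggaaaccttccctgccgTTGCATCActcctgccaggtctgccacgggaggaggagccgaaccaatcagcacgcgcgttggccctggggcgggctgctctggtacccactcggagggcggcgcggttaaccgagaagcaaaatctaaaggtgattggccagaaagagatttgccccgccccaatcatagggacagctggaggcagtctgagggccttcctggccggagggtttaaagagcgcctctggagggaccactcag
Each holds 1 match, and 6 of the 10 genes held none in this window.

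Smaller groups were the p53 targets and single stress genes. Cdkn1a had a median of 19.6 CPM and a highest level of 559 CPM in the 87 cells (ratio 2.4), and Ccng1 2.0 to 1484 CPM (2.4). Their rho was 0.60 here, and 0.65, 0.51 and 0.35 in 5ar2, AFX6 and AF32. Mdm2, the p53 inhibitor gene and target, passed 2 only with cell 41 (2.2 against 1.5). The chaperone genes Hspa5 (237 to 2951 CPM, 2.5) and Hspa8 (445 to 5841 CPM, 2.2), Txnip (2.3), Id3 (2.2) and Jun (2.0) also passed.

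Grouped by their relations across the 87 cells, 21 of the 42 genes formed 1 block. It held the cytoskeletal genes Actg1, Tpm1, Csrp1, Cnn1, Cnn2, Myl9, Tagln2, Tmsb4x and Vim, together with Mest, Car2, Car4, Clu, Ckb, Tdgf1, Nefm, Igfbp3, Ccn1, S100a10, Hspa5 and Hspa8, at a median rho of 0.43 over pairs. The same pairs had a median of 0.25 in 5ar2, 0.15 in AFX6 and 0.09 in AF32. All blocks here were formed from rhos of these same 87 cells, which raises their 5ar1 medians. A lower median in another line is therefore not a measure of a difference between lines. Mest and Tpm1, named for their rho here, had 0.70, and 0.46, 0.01 and −0.06 in 5ar2, AFX6 and AF32. Mest had medians of 4.05 CPM in AFX6 and 0.421 in AF32, under the level of detection. Aurka, Ccnb1, Fzr1, Plk1, Top2a and Ube2c formed a second block of median 0.56, against 0.70, 0.73 and 0.75 in 5ar2, AFX6 and AF32. Chac1, Trib3 and Slc2a1 formed a smaller one of 0.43, and Ccng1 with Cdkn1a and H1f0 with Txnip (0.39) were pairs. The number of detected genes had a median rho of 0.13 with members of the first block and 0.36 with those of the second, and its part in these relations was not tested.

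**Figure D4:**
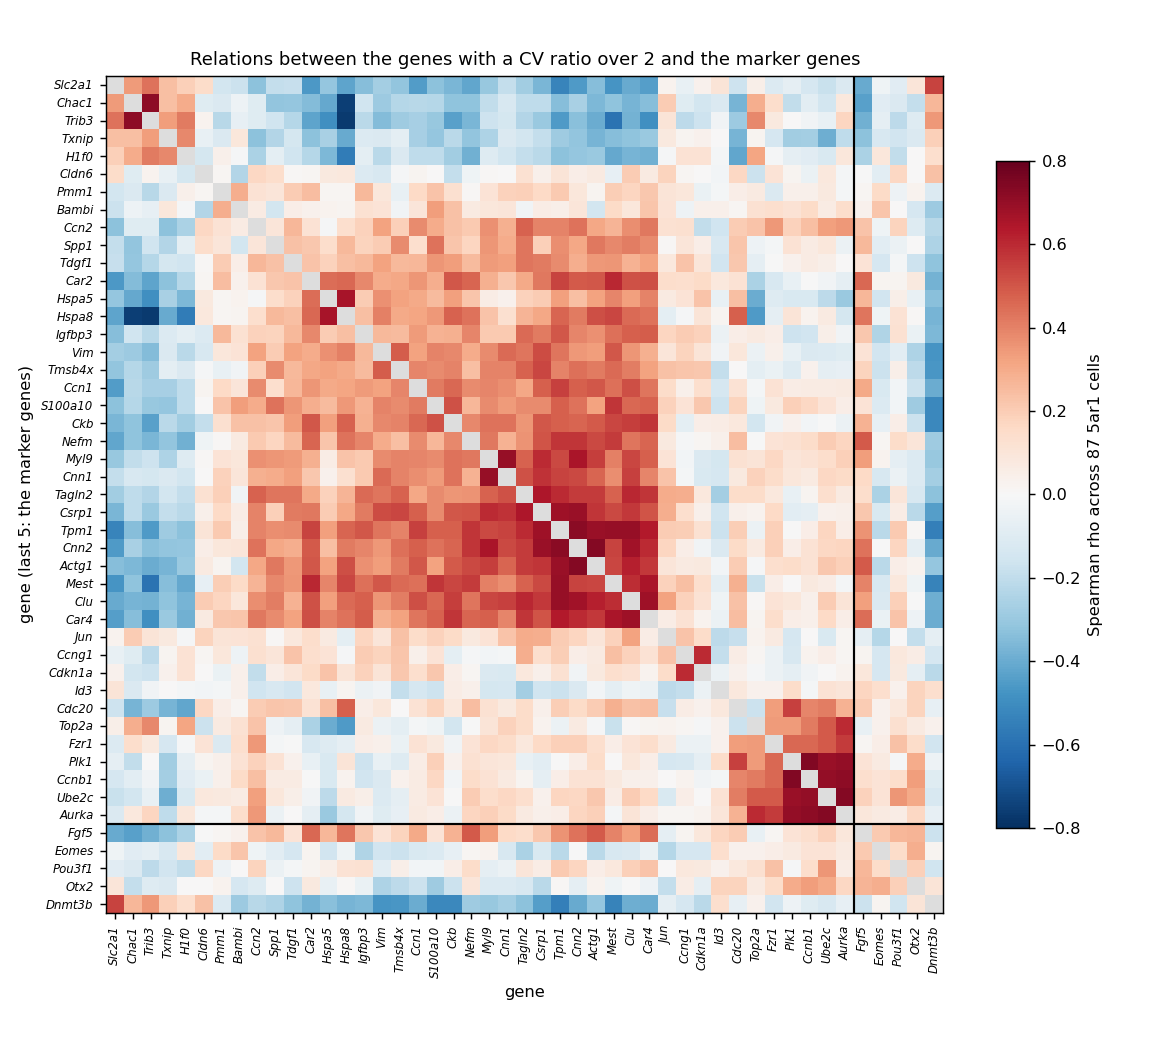
Spearman's rho across 87 cells of 5ar1 (without cells 26, 41 and 66) between the 42 genes with a CV ratio over 2 and, behind the black lines, the 5 marker genes. The block from Car2 to Car4 is the one that holds Actg1 and Tpm1, with a median of 0.43 over its pairs, the block from Top2a to Aurka the mitotic group with 0.56, and Dnmt3b (last row) is negative with the first block.

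Among the markers, Pou3f1 and Dnmt3b had the highest rhos with other genes. Those of Dnmt3b over the 90 cells were with the glycolysis genes Ldha (0.65), Pgk1 (0.56), Slc2a1 (0.55), Tpi1 (0.55) and Aldoc (0.51), and without the 3 cells these were 0.62, 0.52, 0.54, 0.57 and 0.53. In 5ar2 they were 0.47, 0.38, 0.34, 0.20 and 0.21. Its lowest rhos were with genes of the cytoskeleton and matrix, Actb (−0.54), Cald1 (−0.53), Sparc (−0.52), Vim (−0.52) and Pdlim7 (−0.52), which had −0.68, −0.55, −0.61, −0.48 and −0.66 in 5ar2. Cells with much Dnmt3b thus had more Ldha and less Actb and Sparc than cells with little of it, in both FS cell lines. The signs were mostly the same in the EpiSC lines. The 5 highest had −0.04 to 0.28 in AFX6 and 0.03 to 0.38 in AF32. The 5 lowest had −0.43 to −0.04 and −0.40 to −0.14 there.

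Pou3f1 moved most with Pcbp1, a gene of a poly(C) binding protein (0.69), Alyref (0.60), Ythdf1 (0.59), Hdgf (0.57) and Btbd2 (0.56), at 0.59, 0.42, 0.49, 0.46 and 0.48 in 5ar2 and at most 0.21 in either EpiSC line, where Pou3f1 was low. Fgf5 moved most with Adk (0.51), Car2 (0.51), Actg1 (0.50), Tceal8 (0.46) and Hspa8 (0.45), but these were 0.04 to 0.21 in 5ar2. The 5 genes most like Eomes (Itga6, Pitpnc1, Nup43, Hibch and Slc5a5, 0.35 to 0.41) had 0.01 to 0.11 in 5ar2, and those most like Otx2 (Cenpe, Nav1, Trappc11, Ccnb1 and Atp1b3, 0.39 to 0.42) had −0.11 to 0.10. Among the 5 highest of each marker, those of Dnmt3b and Pou3f1 thus kept the larger rhos in 5ar2, while those of Fgf5 and Eomes were positive but small there. Of the 5 genes with the lowest rho to Pou3f1 (−0.35 to −0.32 in 5ar1), 4 were above 0 in 5ar2 (−0.09 to 0.10). These genes were picked for their rho in 5ar1, so their 5ar1 values are a description.

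**Figure D5:**
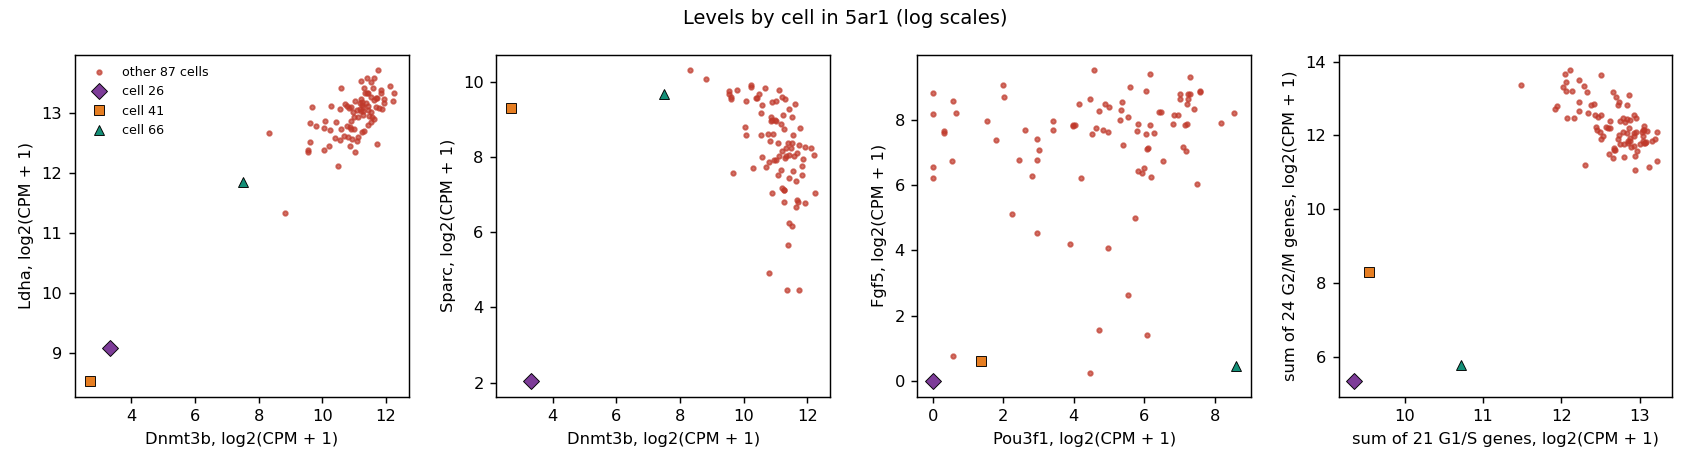
Levels in single 5ar1 cells, as log2(CPM + 1), for Dnmt3b against Ldha and against Sparc, Pou3f1 against Fgf5, and the summed levels of 21 G1/S and 24 G2/M genes, with cells 26, 41 and 66 marked. In the other 87 cells rho is 0.62, −0.55, 0.26 and −0.60 from left to right, and the 3 marked cells are low for both cell cycle sums.

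Lists that moved together or apart in the 87 cells had these relations between their summed levels. The ATF4 and glycolysis sums had a rho of 0.53, and the formative sum, of which Dnmt3b is the largest member by counts, had 0.32 with glycolysis and −0.45 with the mesenchymal sum, which Vim dominates. Epithelial and mesenchymal sums had −0.41, and glycolysis and FGF pathway sums −0.40. The ribosomal protein sum was lower in cells with more detected genes (−0.44). Within lists, pairs of glycolysis genes had a median rho of 0.52, ribosomal protein genes 0.42, p53 targets 0.30, ATF4 genes 0.34, G1/S genes 0.21, formative genes 0.10 and core pluripotency genes 0.02. The pluripotency pairs thus lay near the median of all pairs (0.004). The lists differ in level, Nanog and Sox2 being low, and these rhos were not compared at like level. The medians therefore do not rank how closely the genes of each list varied together.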

How the data were processed

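Reads of 384 single cells had been aligned by the authors with STAR 2.7.3a to GRCm38.p6 and counted per gene with featureCounts 2.0.0 on Ensembl annotation; FastQC, MultiQC and Subread are named in the submitters' processing notes. The deposited raw counts of 31617 genes were used here. The authors also deposited sctransform-normalized values, whole numbers treated as a score and used as an alternative. Groups follow the cell line labels. Per cell, CPM were computed; lines were compared by summed counts with exact conditional intervals, with a count below 3 set to 3, for genes at 20 CPM or more in either line. Symbols, positions and exon lengths came from GENCODE M21, which held 31565 of the genes. Computation used Python 3.11.15 with numpy 2.4.6, pandas 2.3.3 and scipy 1.17.1, and edgeR 4.0.16 for TMM factors; scripts were tested on simulated data.

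Members, lists and tests were chosen with earlier results of these data known. Named are the markers, list members with a role or past a limit, the 20 most abundant genes by CPM and per length, the 30 with the highest CV ratio, the 10 highest and 10 lowest against all lines, and the 5 most like each marker. Genes named for cells 26, 41 and 66, the leading genes of the 87 cells, Kdm5d and genes named in relations beyond these were chosen after their values were seen. Promoters were read from RefSeq. Alternatives were other thresholds, filters, measures and cells kept. Some genes of the lists are not reported here.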

Additional observations from a re-analysis of the deposited data

How the results depend on the processing

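No paired analysis was possible because no result comes from a test and each group is 1 line. The share of cells with Otx2 was 100% with at least 4000000 counts, without the 1 cell of few detected genes (cell 26) and without cells 26, 41 and 66. The number of genes with a CV ratio over 2 was 42 without the highest cell of each gene, 65 at a mean of 50 CPM, 63 with at least 4000000 counts and 42 without cells 26, 41 and 66, an alternative chosen after seeing the data, in place of 107. Without cell 26, 41 or 66 alone it was 82, 81 and 95. The SD of log2(CPM + 1) gave 73 genes, of which 25 were among the 107, and the authors' normalized values gave 102, of which 100 were. With no filter on low values, genes 4-fold higher and lower in 5ar1 were 2413 and 2631 against 5ar2, 4173 and 2450 against AFX6 and 3651 and 2711 against AF32, which moved the share of higher genes from 43.9% to 63.0% for AFX6 and from 37.6% to 57.4% for AF32. At 50 CPM they were 5 and 5, 60 and 91, and 38 and 59. The other 24 fold counts and 22 marker shares under alternatives stayed within their limits. Of single-gene CV ratios, 93 fell under 2 and 10 rose above it in an alternative and 717 stayed on their side. Depth limits genes near 1 CPM, where absence is not detectable, and relations of low genes.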
